A study of Homo sapiens with 6 samples.

Results

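The genes described here are 7 genes of the amino acid and integrated stress response, measured in human HEK293 cells that carry either TDNC1 or a random control RNA. They are the transcription factor genes ATF4 and DDIT3, the amino acid enzyme genes ASNS, PSPH and ASS1, the secreted factor gene STC2 and the GCN2 regulator gene IMPACT. They were chosen by their higher values in TDNC1 arrays in an earlier look at the same comparison, so their differences are given as a description with no test. Each gene was found by its symbol in the platform annotation and had 1 row, so the 7 genes are 7 of 14884 named genes and 7 of 53617 rows. No filter on low values was applied, and all 7 are reported.

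When amino acids run short, uncharged transfer RNA activates the kinase GCN2, which phosphorylates the initiation factor eIF2alpha. General translation then falls while ATF4 mRNA is translated more, and the ATF4 protein binds composite elements with C/EBP partners in the promoters of enzymes, transporters, transfer RNA synthetases and further stress factors. The kinase PERK feeds the same route from the endoplasmic reticulum, beside the separate ATF6 and IRE1 arms that raise chaperones. Much of the control of ATF4 is translational, and arrays measure RNA only.

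HEK293 is an established line from human embryonic kidney. The Flp-In T-REx form used for both groups takes up a construct at 1 fixed genomic site, and stable clones were pooled. The 3 TDNC1 arrays came from cells stably overexpressing TDNC1 and the 3 control arrays from cells with a random RNA. All were grown in serum-containing medium with added glutamine and blasticidin, with hygromycin after transfection. No amino acid starvation is named in the labels, and the sources used here do not say whether the T-REx inducer was present. The labels call the arrays biological replicates and name no separate cultures. A p-value here thus covers only the spread between these samples, and that spread may be technical. In RNA from a whole culture, fewer cells expressing a gene and less of its RNA per cell cannot be told apart. Values are log2 expression, and the precision is set by the 3 arrays per group. The array medians lay between 5.16 and 5.22. The library labelled TDNC1 replicate 3 lay nearer to the controls than to the other TDNC1 arrays. Over the rows brighter than the median, its median absolute log2 difference was 0.1002 from control replicate 3, 0.135 and 0.127 from control replicates 1 and 2, and 0.177 and 0.165 from TDNC1 replicates 1 and 2. TDNC1 replicates 1 and 2 differed from each other by 0.104, and control replicates 1 and 2 by 0.1016. Control replicate 3 was also nearer to TDNC1 replicate 3 than to the other controls. The nearer of these, control replicate 2, differed from it by 0.1319. By these distances both arrays numbered 3 stood apart from the rest of their group, and what they may share was not tested. The labels were kept as given, and no value here checks TDNC1 itself in TDNC1 replicate 3. The group differences below thus depend on whether that library is what its label says. Limma called 1 row with all arrays and 23 without it. Differences without it, from TDNC1 replicates 1 and 2 against all controls, are given for each of the 7 genes, and for a named pathway gene at least where they are over 1.5 times larger or smaller or change sign. Of the HEK293 markers, 4 of 8 were measured. The intermediate filament genes KRT18 and VIM lay above at least 93.9% and 91.7% of rows in every array, KRT8 above 70.1% to 77.8% and the kidney factor gene PAX2 above 61.1% to 72.4%. PAX2 was higher in all TDNC1 arrays than in all controls, by 0.41 (SE 0.12, limma adjusted p = 0.631), and its part in the results was not tested. Of other cell types, 3 of 8 fibroblast markers and 2 of 8 blood cell markers were measured. Their summed log2 levels ran from 10.9 to 12.3 in TDNC1 and 11.5 to 11.96 in the control for fibroblasts, and from 10.2 to 10.7 and 10.1 to 10.4 for blood cells. The fibroblast proteoglycan gene DCN lay below the lower quartile of every array. The other fibroblast markers were brighter, with LUM above 17.5% to 31.3% of rows and THY1 above 55.8% to 64.2%. Of the blood cell markers, LYZ lay above 27.2% to 36.9% of rows and SPI1 above 63.4% to 68.6%.

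The promoter of ASNS is shown because it holds the core of the C/EBP-ATF response element, through which ATF4 is known to act on this gene. The window runs from 250 bases before to 50 after an annotated start, 5′ to 3′ along the gene, at chr7:97872359-97872658 on the minus strand (RefSeq, GRCh38.p14). Capitals mark the match to TGATGNAA, which begins 68 bases before the start.
ASNS promoter: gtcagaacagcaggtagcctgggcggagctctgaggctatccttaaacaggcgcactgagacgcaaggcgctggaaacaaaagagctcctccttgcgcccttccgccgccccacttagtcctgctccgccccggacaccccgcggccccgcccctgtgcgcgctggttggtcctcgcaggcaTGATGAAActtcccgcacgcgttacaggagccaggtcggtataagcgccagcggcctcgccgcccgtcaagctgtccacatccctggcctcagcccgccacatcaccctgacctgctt

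Of the 7 genes, 6 had promoter windows in the RefSeq table, 10 windows in all, and 1 window of ASNS was the single one with TGATGNAA on either strand. PSPH was not in the table. Among all promoter windows of the same length, 3.62% held the motif, and 4.46% of all genes had it in at least 1 window. The cyclic AMP response element TGACGTCA, which reads the same on both strands, was in 0 windows of the 7 genes and in 1.85% of all windows, so no window of the 7 genes held both motifs. A match is a description of letters, and a gene without one can have the element outside this window.

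Transfer RNA synthetase genes that ATF4 is known to regulate are shown as the counterpart of ASNS. The core was in 7 of the 10 found in the table, each printed with 10 bases on either side and the core in capitals (TGATGNAA or its reverse complement TTNCATCA, GRCh38.p14).
AARS1 at chr16:70289676-70289703 on the minus strand: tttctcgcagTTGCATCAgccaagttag
CARS1 at chr11:3057408-3057435 on the minus strand: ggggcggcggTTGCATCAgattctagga
GARS1 at chr7:30594835-30594862 on the plus strand: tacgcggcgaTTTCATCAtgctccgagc
IARS1 at chr9:92293693-92293720 on the minus strand: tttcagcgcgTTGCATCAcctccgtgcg
MARS1 at chr12:57488054-57488081 on the plus strand: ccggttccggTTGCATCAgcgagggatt
NARS1 at chr18:57621805-57621832 on the minus strand: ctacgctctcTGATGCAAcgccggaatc
TARS1 at chr5:33440957-33440984 on the plus strand: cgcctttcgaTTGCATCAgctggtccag

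Among the transcription factors, ATF4, the activator at the centre of the response, stood at 10.68, 10.67 and 10.58 in TDNC1 replicates 1, 2 and 3 and at 10.38, 10.31 and 10.52 in control replicates 1, 2 and 3. All TDNC1 arrays lay above all controls, but TDNC1 replicate 3 and control replicate 3 were only 0.05 apart. The group means were 10.65 ± 0.06 (SD, n = 3) and 10.40 ± 0.11 (SD, n = 3), a log2 difference of 0.24 (SE 0.10), or 1.18-fold, and without TDNC1 replicate 3 it was 0.27 (SE 0.10). It was the smallest difference of the 7 genes. ATF4 has processed pseudogenes, and whether the probes tell them apart is uncertain.

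DDIT3 encodes CHOP, a factor induced through ATF4 that is known for its part in stress-induced cell death. Its row stood at 5.04, 5.10 and 4.577 in TDNC1 and at 4.26, 4.584 and 4.41 in the control. The first 2 TDNC1 arrays were high, whereas TDNC1 replicate 3 fell just under control replicate 2, so the groups overlapped. The means were 4.90 ± 0.28 (SD, n = 3) and 4.42 ± 0.16 (SD, n = 3), a log2 difference of 0.49 (SE 0.16). It was 0.65 (SE 0.12) without TDNC1 replicate 3. Every value of DDIT3 lay below the median of its array, where array values flatten, so its fold can be understated.

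Of the enzymes, ASNS makes asparagine from aspartate and glutamine. It stood at 9.44, 9.46 and 8.84 in TDNC1 and at 8.75, 8.69 and 8.62 in the control. Replicates 1 and 2 of TDNC1 were 0.01 apart and well above all controls, and TDNC1 replicate 3 was above the highest control by 0.09. The means were 9.25 ± 0.35 (SD, n = 3) and 8.68 ± 0.06 (SD, n = 3), a log2 difference of 0.56 (SE 0.18), or 1.48-fold. When TDNC1 replicate 3 was left out, the difference was 0.77 (SE 0.09), or 1.70-fold.

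PSPH catalyses the last step of serine synthesis. Its values were 8.32, 8.34 and 8.17 in TDNC1, against 7.89, 7.86 and 7.999 in the control. Here the gap between the lowest TDNC1 array and the highest control was 0.17, the widest of the 7 genes. The means were 8.28 ± 0.10 (SD, n = 3) and 7.91 ± 0.08 (SD, n = 3), a log2 difference of 0.36 (SE 0.10), against 0.42 (SE 0.09) without TDNC1 replicate 3. PSPH has a related pseudogene that the probes may not tell apart.

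ASS1 joins citrulline and aspartate on the way to arginine. It stood at 9.63, 9.70 and 9.06 in TDNC1 and at 8.67, 8.59 and 9.01 in the control. The 2 arrays numbered 3 were within 0.06 of each other, above the other controls and below the other TDNC1 arrays. The means were 9.46 ± 0.35 (SD, n = 3) and 8.76 ± 0.22 (SD, n = 3), and the log2 difference of 0.71 (SE 0.20), or 1.63-fold, was the largest of the 7 with all arrays. Without TDNC1 replicate 3 it was 0.91 (SE 0.15), and with both arrays numbered 3 left out 1.03. Several processed pseudogenes of ASS1 exist in the human genome, and the sources used here do not say whether the probes avoid them.

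STC2, stanniocalcin 2, is a secreted glycoprotein that is known as an ATF4 target. It stood at 8.71, 8.64 and 7.94 in TDNC1 and at 8.03, 8.10 and 7.79 in the control. TDNC1 replicate 3 lay inside the control range. Control replicate 3 was the lowest of the 6 arrays, as for ASNS and unlike its place for ATF4, PSPH and ASS1. The means were 8.43 ± 0.42 (SD, n = 3) and 7.98 ± 0.16 (SD, n = 3), a log2 difference of 0.45 (SE 0.21). For STC2 the difference without TDNC1 replicate 3 was 0.70 (SE 0.12), over 1.5 times as large.

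IMPACT binds GCN1 and holds back the activation of GCN2. Its values were 8.85, 8.79 and 7.81 in TDNC1, against 7.79, 7.73 and 7.84 in the control. Both high arrays were about 1 log2 unit above all other arrays, and TDNC1 replicate 3 lay among the controls, which themselves differed by little. The means were 8.48 ± 0.58 (SD, n = 3) and 7.79 ± 0.05 (SD, n = 3), a log2 difference of 0.70 (SE 0.27). Without TDNC1 replicate 3 the difference was 1.03 (SE 0.09), or 2.05-fold.

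**Figure D1:**
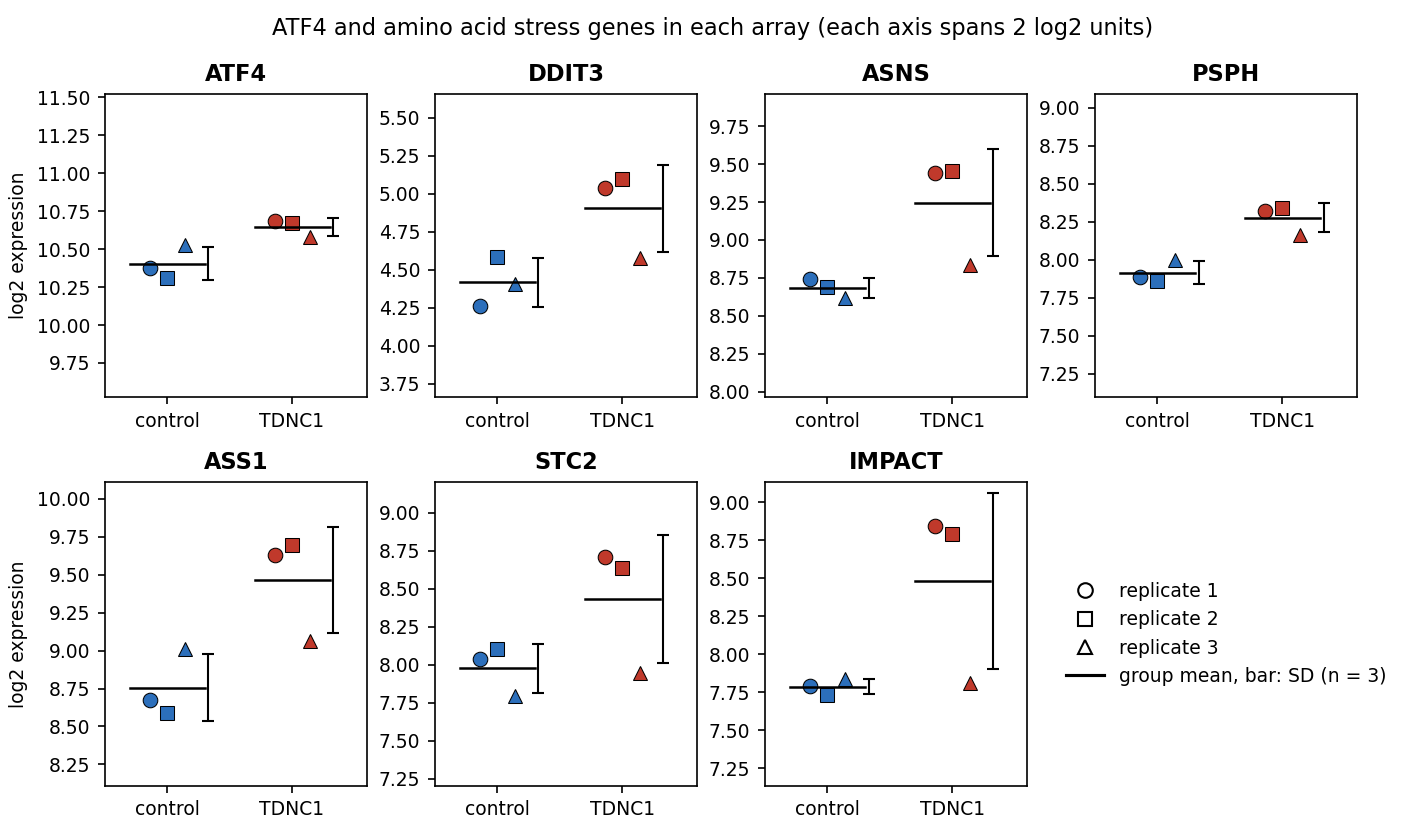
Log2 expression of the 7 genes in each array, control in blue and TDNC1 in red, with the shape giving the replicate number, the line the group mean and the bar the SD (n = 3). TDNC1 replicates 1 and 2 lie above all controls in every panel, and TDNC1 replicate 3 (triangle) lies lower, inside the control range for DDIT3, STC2 and IMPACT.

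Across the 7 genes, TDNC1 replicates 1 and 2 lay above all 3 controls in 7 of 7, as they did in 15.9% of all rows. With TDNC1 replicate 3 included, the groups did not overlap in 4 of 7 (ATF4, ASNS, PSPH and ASS1), against 6.48% of all rows with all TDNC1 arrays above all controls. Since the genes were chosen on this comparison, nothing is read from either count. The median log2 difference was 0.49 with all arrays and 0.70 without TDNC1 replicate 3, where the medians over all rows were -0.01 and -0.02.

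TDNC1 replicate 3 was the lowest TDNC1 array for 7 of 7 genes, but by unequal amounts. Its distance from the control mean was 62.6% of that of replicates 1 and 2 for ATF4 and 60.4% for PSPH. It was 34.0% for ASS1, 24.5% for DDIT3 and 20.0% for ASNS. For IMPACT it was 2.42%, and for STC2 the array lay below the control mean, by 0.03. ATF4 and PSPH, with small differences in replicates 1 and 2, thus kept most of them in replicate 3, and IMPACT, with the largest, kept almost none. Control replicate 3 was also above the control mean for ATF4 (10.52 against 10.40), PSPH (7.999 against 7.91) and ASS1 (9.01 against 8.76). For these genes a part of the distance of TDNC1 replicate 3 was thus seen in a control too. For IMPACT, control replicate 3 (7.84 against 7.79) lay farther above the control mean than TDNC1 replicate 3 did. Control replicate 3 lay below the control mean for DDIT3 (4.41 against 4.42), ASNS (8.62 against 8.68) and STC2 (7.79 against 7.98). The distances of TDNC1 replicate 3 and of replicates 1 and 2 are taken from the same control mean. Whether they differ between genes was not tested.

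The mean of the 7 genes relative to their control means was 0.68 in both TDNC1 replicate 1 and TDNC1 replicate 2 and 0.15 in TDNC1 replicate 3. In the controls it was -0.02, -0.01 and 0.04. Over the 6 arrays the Pearson correlations of the 21 gene pairs ran from 0.61 for ATF4 with STC2 to 0.98 for ASNS with IMPACT, with a median of 0.91. ATF4 followed PSPH (0.97) and ASS1 (0.96) more closely than STC2. Each of these correlations shares the split between TDNC1 replicates 1 and 2 and the other arrays.

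**Figure D2:**
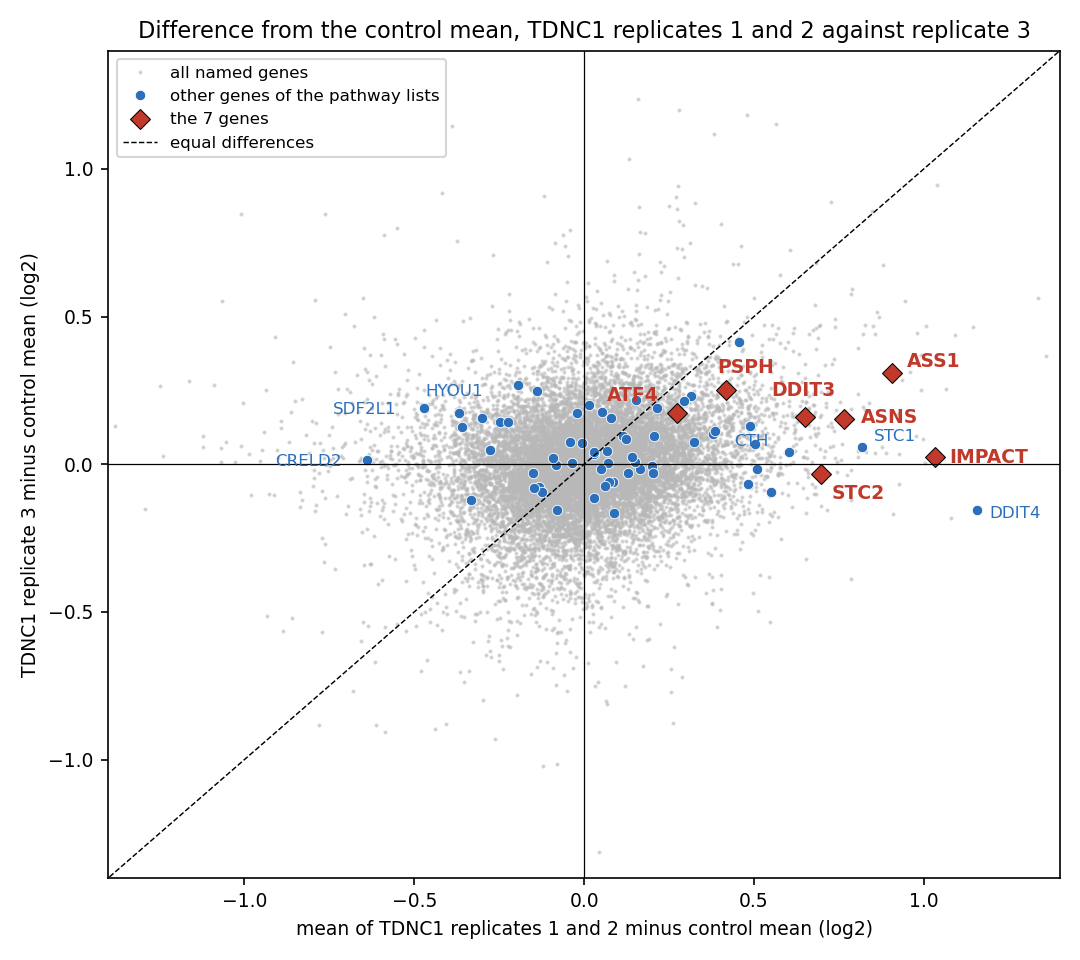
Log2 difference from the control mean of the mean of TDNC1 replicates 1 and 2 (horizontal) and of TDNC1 replicate 3 (vertical), for the 7 genes in red, the other genes of the pathway lists in blue and all 14884 named genes in grey, of which 3 lie outside the axes. Both axes share the control mean. The 7 genes lie to the right, below the line of equal differences, with ATF4 and PSPH nearest to it and IMPACT farthest.

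The remaining pathway genes were taken from 9 lists of 113 genes in all, of which 60 other than the 7 were measured, that is, had a named row. None of the 60 passed limma's test after Benjamini-Hochberg adjustment over all rows (smallest adjusted p = 0.631), where 0.00187% of all rows did. At an unadjusted p under 0.05, 8 were higher in TDNC1 (13.3%) and 0 lower, against 3.74% and 3.96% of all rows. Of protein-coding genes brighter than the median row, 5.51% were higher and 2.14% lower. The lists were chosen with earlier results of these data known, so the shares of the 60 are description only. The median difference of the 60 was 0.05. The count of 8 was 1 without TDNC1 replicate 1, 1 without TDNC1 replicate 2, 13 without TDNC1 replicate 3, 2 without control replicate 1, 1 without control replicate 2, 5 after scaling to the 75th percentile, 5 with the replicate number as a block and 14 with array weights. Without TDNC1 replicate 3, 13 were higher (21.7%) and 6 lower (10.0%) at that p. The shares were then 6.87% and 7.62% of all rows, and 13.1% and 9.27% of the brighter protein-coding genes. No pathway gene passed after adjustment there either (limma, smallest adjusted p = 0.0563, for DDIT4), as 0.0429% of all rows did.

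**Figure D3:**
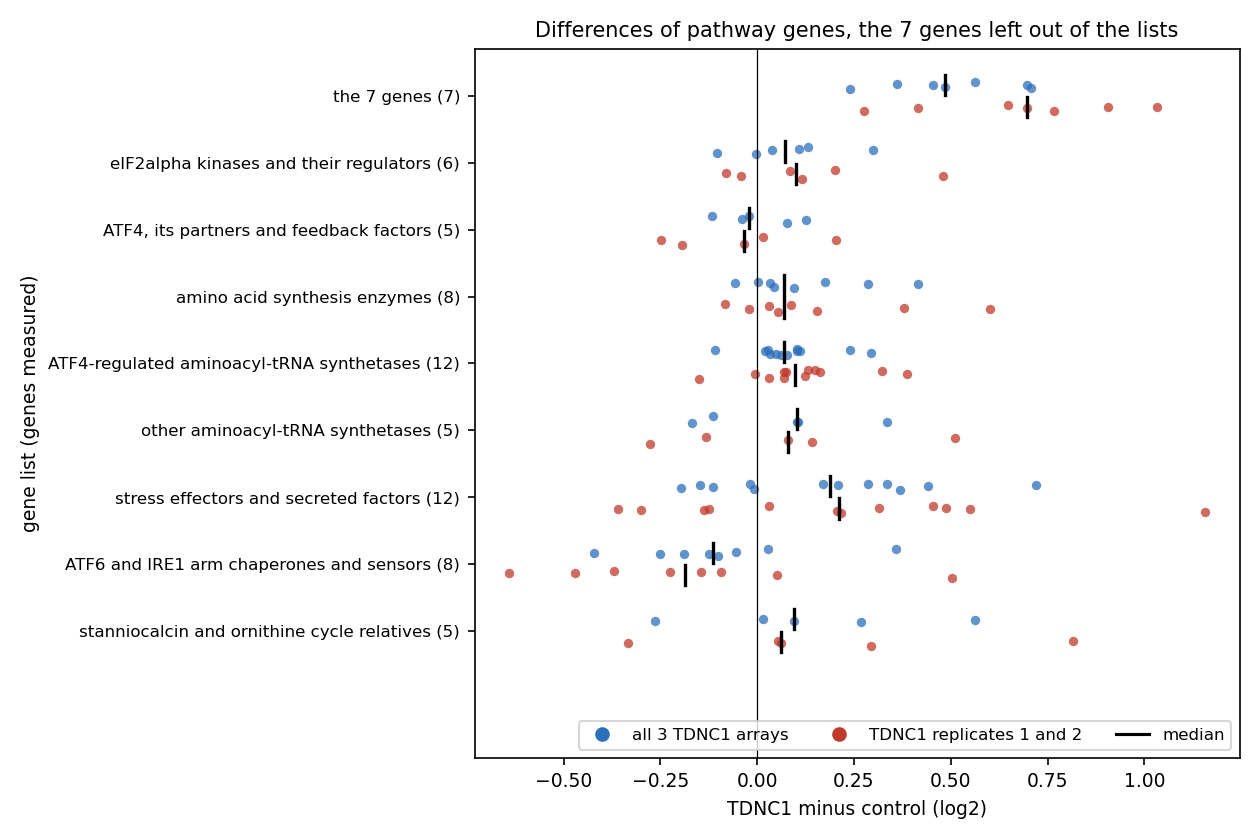
Log2 difference between TDNC1 and control for each measured gene of the pathway lists (points) with the median (line), for all 3 TDNC1 arrays in blue and for TDNC1 replicates 1 and 2 in red. The 7 genes, chosen on this comparison, are the top row and are left out of the lists, whose medians lie between -0.11 and 0.19 with all arrays.

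Upstream of ATF4, 0 of 6 measured kinases and regulators of eIF2alpha passed. EIF2AK4, the gene of GCN2 itself, stood at 8.52, 8.47 and 7.95 in TDNC1 and at 8.02, 8.05 and 7.97 in the control. As for IMPACT, TDNC1 replicates 1 and 2 were above all other arrays, and TDNC1 replicate 3 was the lowest of the 6. The log2 difference was 0.30 (SE 0.16, limma adjusted p = 0.680), and 0.48 (SE 0.09, adjusted p = 0.121) without TDNC1 replicate 3. GCN1, which carries the signal from ribosomes to GCN2, had a difference of 0.04 (SE 0.09), and the PERK gene EIF2AK3 -0.002 (SE 0.11). Leaving out that array, these were 0.09 (SE 0.09) and -0.04 (SE 0.12). The double-stranded RNA kinase gene EIF2AK2 had 0.13 (SE 0.10), and 0.20 (SE 0.10) without that array, and the heme-regulated kinase gene EIF2AK1 0.11 (SE 0.08).

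Beside ATF4 and DDIT3, 0 of 5 measured partners and feedback factors passed, and their median log2 difference was -0.02. The partner genes CEBPB and CEBPG had no named row. ATF3, which ATF4 is known to induce, stood at 7.09, 7.06 and 7.54 in TDNC1 and at 6.98, 7.05 and 7.78 in the control. Its high values were in the 2 arrays numbered 3, in contrast to the 7 genes, and its difference was -0.04 (SE 0.24), or -0.19 (SE 0.25) without TDNC1 replicate 3. TRIB3, a pseudokinase that restrains ATF4, had a difference of 0.08 (SE 0.10), and ATF5 -0.12 (SE 0.15). NFE2L2, a factor of the oxidative stress response, had 0.13 (SE 0.10). JDP2 had -0.02 (SE 0.10), and promoters of both ATF3 and JDP2 also held the element core. Without TDNC1 replicate 3 the differences were 0.01 (SE 0.10) for TRIB3, -0.25 (SE 0.14) for ATF5, 0.20 (SE 0.09) for NFE2L2 and -0.04 (SE 0.12) for JDP2.

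Among amino acid enzymes, 0 of 8 measured genes other than the 3 described passed (median 0.07). The 2 enzymes of serine synthesis before PSPH had small differences. PHGDH, the first enzyme, had 0.04 (SE 0.12), turning to -0.02 (SE 0.12) without TDNC1 replicate 3, and PSAT1, the second, 0.03 (SE 0.08), with PSAT1 between 11.07 and 11.12 in all 6 arrays. SHMT2, which uses serine in mitochondria, had -0.06 (SE 0.09). Within the cysteine pathway, CTH, which releases cysteine from cystathionine, stood at 8.02, 8.10 and 7.50 in TDNC1 and at 7.42, 7.33 and 7.62 in the control. TDNC1 replicates 1 and 2 were above the rest, and TDNC1 replicate 3 was below control replicate 3. The difference of CTH was 0.42 (SE 0.18, limma adjusted p = 0.647), and 0.60 (SE 0.12, adjusted p = 0.132) without TDNC1 replicate 3. CBS, one step earlier, had 0.29 (SE 0.14). The glutamine synthetase gene GLUL had 0.18 (SE 0.11).

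Transfer RNA synthetases known as ATF4 targets had a median difference of 0.07 over 12 measured genes, and 0 passed. Of the 12, 11 were positive, and 10 without TDNC1 replicate 3. The share of positive differences over all genes was not computed, so counts of positive genes in this and the next lists are description only. LARS1, for leucine, had 0.29 (SE 0.11) and AARS1, for alanine, 0.24 (SE 0.10), with limma adjusted p of 0.634 and 0.647. YARS1, for tyrosine, had 0.11 (SE 0.09). In the 7 synthetase genes shown with the element core the differences ran from 0.02 to 0.24 (median 0.05, and 0.07 without TDNC1 replicate 3). For ASNS, with the same core, it was 0.56. Of these synthetases, MARS1 had 0.02 (SE 0.09), NARS1 0.08 (SE 0.09) and TARS1 0.03 (SE 0.09) with all arrays. Without TDNC1 replicate 3 they had -0.006 (SE 0.09), 0.13 (SE 0.09) and 0.07 (SE 0.09). Over all lists, the 10 pathway genes with the core had a median of 0.03 and the 41 in the table without it 0.04. For the synthetases outside the ATF4 list, 5 measured, the median was 0.10, with QARS1, for glutamine, at 0.33 (SE 0.16), HARS1, for histidine, at -0.17 (SE 0.12) and RARS1, for arginine, at -0.11 (SE 0.09). Without TDNC1 replicate 3, QARS1 was at 0.51 (SE 0.10, limma adjusted p = 0.131) and HARS1 at -0.28 (SE 0.09, adjusted p = 0.263).

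Stress effectors had the highest list median, 0.19 over 12 genes other than STC2, with 7 positive and 0 passing. DDIT4, an inhibitor of mTOR signalling, stood at 8.81, 8.85 and 7.52 in TDNC1 and at 7.76, 7.58 and 7.69 in the control. The same 2 TDNC1 arrays were high, and TDNC1 replicate 3 lay below every control. Its log2 difference was 0.72 (SE 0.34, limma adjusted p = 0.660), and 1.16 (SE 0.10) without TDNC1 replicate 3. VEGFA, an angiogenic growth factor gene, had 0.37 (SE 0.13), KLHL24 0.29 (SE 0.09) and PMAIP1, which encodes the death factor NOXA, 0.44 (SE 0.16). For PMAIP1 control replicate 3, at 10.46, was close to the TDNC1 arrays. SESN2, an ATF4-linked inhibitor of mTOR signalling, had -0.20 (SE 0.17), and -0.36 (SE 0.13, limma adjusted p = 0.312) without TDNC1 replicate 3, with 7.99 and 8.05 in TDNC1 replicates 1 and 2 against 8.50 in TDNC1 replicate 3.

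Chaperones and sensors of the ATF6 and IRE1 arms had the lowest list median, -0.11 over 8 measured genes, 2 of them positive, and 0 passed. The list genes HSPA5, HSP90B1 and DNAJB9 had no named row. CRELD2, a secreted protein of the endoplasmic reticulum stress response, stood at 6.06, 6.06 and 6.71 in TDNC1 and at 6.62, 6.65 and 6.82 in the control. TDNC1 replicates 1 and 2 were low and TDNC1 replicate 3 was within the control range. The difference was -0.42 (SE 0.19, limma adjusted p = 0.650), and -0.64 (SE 0.10, adjusted p = 0.107) without TDNC1 replicate 3. With all arrays SDF2L1 had -0.25 (SE 0.20) and HYOU1 -0.19 (SE 0.16), both genes of the endoplasmic reticulum's folding machinery. Leaving out TDNC1 replicate 3 gave -0.47 (SE 0.13) and -0.37 (SE 0.10). ERN1, which encodes IRE1 itself, had 0.36 (SE 0.15) with all arrays and 0.50 (SE 0.12) without that array. CALR, a lectin chaperone gene, had -0.12 (SE 0.09).

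Of the relatives of STC2 and ASS1, the paralogue STC1 stood at 6.55, 6.45 and 5.74 in TDNC1 and at 5.63, 5.98 and 5.44 in the control. Control replicate 3 was its lowest array, as for STC2 and ASNS. The difference of STC1 was 0.56 (SE 0.24, limma adjusted p = 0.647), beside 0.45 for STC2. ASL, which acts after ASS1 on the way to arginine, had 0.09 (SE 0.09), and 0.05 (SE 0.09) without TDNC1 replicate 3, so the 2 neighbouring steps had unlike values, though the difference between them was not tested. NOS1, a nitric oxide synthase gene that uses arginine, had 0.27 (SE 0.11), and OTC, which makes citrulline and is dim here, -0.26 (SE 0.13).

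Genes with the closest pattern to the mean of the 7 were sought among 9430 protein-coding genes brighter than the median row. Over the 6 arrays 393 had a Pearson r above 0.95, and 189 had one beyond the same size with the opposite sign. The points share the split between TDNC1 replicates 1 and 2 and the other arrays. Highest was ARRDC4, an arrestin-family gene, with r = 0.999 (Spearman rho 1.00). Next was SRR, serine racemase, which makes D-serine from L-serine, with r = 0.998 (rho 0.94) and values of 8.78, 8.80 and 8.35 in TDNC1, against 8.23, 8.18 and 8.25 in the control. LRCH2, ERMARD and SYCP2L followed with r of 0.998, 0.998 and 0.997. The lowest r were those of the HSP70 gene HSPA1B (-0.997), the vesicle-fusion gene VPS33A (-0.997) and the splicing-related gene HNRNPM (-0.997). HSPA1B stood at 11.71, 11.78 and 12.44 in TDNC1 and at 12.59, 12.60 and 12.55 in the control, and it shares its sequence with a near-identical copy.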

How the data were processed

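Expression was read from total RNA in 6 samples, 1 Human Gene ST 2.0 array each (Affymetrix). The submitters' processing notes name RMA and Affymetrix Power Tools, with versions and annotation not given in the sources used here. Values in the table the authors deposited are on the log2 scale, judged from its range (0.79 to 13.9). RMA removes a shift shared by most transcripts and compresses folds of dim rows.

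Rows were named through the platform annotation, updated by entrez identifier to GRCh38.p14 symbols (16098 of 53617 rows, each with 1 symbol; the brightest row per symbol). Groups were compared in R 4.3.3 with limma 3.58.1 over all 6 arrays, two-sided, with Benjamini-Hochberg adjustment over all rows and calls under 0.05. The step was tested on simulated arrays, with changes larger than the differences of the 7 genes over all arrays. That check thus does not show whether differences of their size could be called. The SE of each difference is that of this fit. The 7 genes, the lists and the rules were chosen with earlier results of these data known. Named beside the 7 were up to 3 genes per list with the smallest p, a preset set of pathway genes where measured, and the 5 highest and 3 lowest r. JDP2, SHMT2, SDF2L1 and HYOU1 were added after their values were seen. Differences of MARS1, NARS1 and TARS1, shown with the element core, were also given outside these rules. A gene counted as measured only if it had a named row, and 37519 rows had no name. Amino acid transporters, with 0 of 12 measured, and list genes without a named row were not analysed here. Among these list genes were PPP1R15A, CEBPB, CEBPG, CHAC1, HSPA5, HSP90B1 and DNAJB9. Alternatives left out arrays, added the replicate number as a block, or changed weights, prior, scaling or the filter on dim rows.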

Additional observations from a re-analysis of the deposited data

How the results depend on the processing

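Leaving out each array in turn gave 1 to 23 called rows, 1 to 13 pathway genes higher and 0 to 6 lower at an unadjusted p under 0.05, and 4 to 7 of the 7 genes without overlap, where 9.62% to 15.9% of all rows had all TDNC1 arrays above all controls. The extremes of 23, 13, 6 and 7 came without TDNC1 replicate 3. Without both arrays numbered 3, 15 pathway genes were higher and 4 lower and 7 of the 7 genes did not overlap, against 21.9% of all rows. The 7 genes were chosen on this comparison, so nothing is read from those counts. Array weights gave 14 higher and 1 lower, and scaling to the 75th percentile 5 higher. With the replicate number as a block, 5 were higher and 2 lower. Over all rows, the deviations of same-numbered arrays from their group means correlated at only 0.04, -0.001 and 0.05. TDNC1 replicate 2 was closest to control replicate 1, at 0.05, so the numbers were not taken as pairs. Over the brighter rows the 2 arrays numbered 3 were still the closest pair, with a median absolute difference of 0.1002. These correlations thus do not show that those 2 arrays share nothing, and what they may share was not tested. No pathway gene passed after adjustment under any of these alternatives. Without both arrays numbered 3 the differences of ATF4, PSPH and ASS1 were 0.33, 0.46 and 1.03. By Spearman's rho, 92 genes in place of 393 had a pattern over 0.95. With 6 arrays and no ties the next rho under 1 is 0.943, so these 92 have identical ranks, and the 2 counts do not measure likeness alike. The causes of the other changes were not tested. Arrays carry no sequencing depth. The signal of DDIT3 was low, but its SE (0.16) was below those of the brighter ASNS, ASS1, STC2 and IMPACT.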
